A study of Mus musculus with 12 samples.

Results

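Mt1 and Mt2 are the metallothionein genes of mouse that are active in most tissues. They are described here in embryonic stem (ES) cells of the mouse line R1 and in the embryoid bodies (EB) that formed from them. They are 2 of 9212 genes named on the array and 2 of the 4 metallothionein genes there, each measured by 1 probe. The genes were found by their symbols, and they were chosen by their measured log ratios over the days and by how closely the 2 agreed over the arrays, so these values are given as a description with no test.

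The study let ES cells differentiate at random. Its 12 arrays held ES RNA in 1 of 2 channels and EB RNA in the other, with 3 arrays for each of 4 times. The ES cells grew undifferentiated on gelatin-coated dishes in serum with leukemia inhibitory factor (LIF), and the EB cells were dissociated, plated in serum and kept for 4, 8, 15 or 21 days. All cells came from 1 ES line without a genetic change or a treatment named in the labels, and the labels name no separate cultures for arrays of the same day, so a p-value here reflects array-to-array spread alone, which may be technical. Values are the deposited log ratios, read to base 2 by convention, and values above 0 are taken to mean more RNA in EB than in ES cells. That direction is likely and not settled: the protocols for labelling give it, while sample titles and dye fields give the opposite, and ES cell and yolk sac genes were used to choose it. With the sign turned, every higher and lower would change places, each fold would be its inverse and each rank would count from the other end, whereas correlations and p-values would stay as they are.

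Metallothioneins are small proteins rich in cysteine that bind zinc and copper through clusters of sulphur atoms. They buffer zinc inside the cell, take up toxic metals such as cadmium and react with oxidants. Transcription of Mt1 and Mt2 is driven by the zinc-sensing factor MTF1, which binds metal response elements in their promoters, and glucocorticoids, IL-6 type cytokines and oxidative stress also raise it. In the mouse embryo both genes are strongly active in the visceral endoderm of the yolk sac and then in the fetal liver. Mt3 is mainly a gene of brain and Mt4 of stratified epithelium. All 4 lie in a cluster on chromosome 8, in the order Mt4, Mt3, Mt2 and Mt1, with the annotated gene Gm39227 between Mt3 and Mt2.

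The sequences below show the metal response element cores around 1 annotated start of each of the 2 genes, because this shared feature was not used to choose them. They are from RefSeq on GRCm38.p6, plus strand, 5′ to 3′, and capitals mark each match to TGCACNC or TGCGCNC on either strand. For Mt2 the window runs from 250 bases before to 30 bases after the annotated start (chr8:94172368-94172647). For Mt1, unlike Mt2, bases before the start used already lie in the annotated gene. The start used for Mt1 is thus not the first base of that gene. Only short stretches around its 3 matches are given (chr8:94179061-94179077, chr8:94179086-94179102 and chr8:94179104-94179120).
Mt2: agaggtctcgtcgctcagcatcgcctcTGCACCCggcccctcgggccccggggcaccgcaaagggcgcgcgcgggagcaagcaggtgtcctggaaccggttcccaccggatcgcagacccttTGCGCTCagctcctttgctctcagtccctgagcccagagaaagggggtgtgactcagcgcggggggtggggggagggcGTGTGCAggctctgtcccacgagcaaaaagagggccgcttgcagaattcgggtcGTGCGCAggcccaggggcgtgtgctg
Mt1, first stretch: cgctgTGCACACtggcg
Mt1, second stretch: agctcTGCACTCcgccc
Mt1, last stretch: aaaagTGCGCTCggctc

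In the whole window of 300 bases (250 before and 50 after the start), Mt2 held 4 cores and Mt1 held 3. Counted from the start used, the Mt1 cores lay at -23 to -17, 3 to 9 and 21 to 27. Those of Mt2 lay at -223 to -217, -128 to -122, -50 to -44 and 5 to 11. Some cores of both genes thus lay after the start used. Whether that is the main start of transcription of either gene was not examined, so the cores are not placed inside or outside the main transcript. No window at another start of Mt1 was examined, so its counts hold for this window alone. Of 32851 such windows of mouse genes, 0.517% held 4 or more and 1.97% held 3 or more, while 25.7% held at least 1. The windows of Mt3 and Mt4 held 1 core each. The Mt2 window also held 1 match to TGACNNNGC, the core of the antioxidant response element, on the plus strand and apart from the metal response cores. This core was present in 12.4% of windows. The Mt1 window held 0 of it, which says only that these letters are not in that window. A match is a description of the sequence and not a measured binding site.

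Mt1 stood near the ES level at the early times on some arrays and above it on all arrays at the late times. At day 4 its log2 ratio was 0.19, -0.13 and 0.54 on arrays 1 to 3. At day 8 it was -0.20, 0.60 and 0.92. The early arrays thus ranged from just below the ES level to 1.90-fold above it. At day 15 Mt1 was at 0.74, 0.79 and 0.73, and at day 21 at 1.17, 1.15 and 0.95. These 6 late values were all positive, and each day's arrays lay close together. The day means were 0.20 ± 0.33 (SD, n = 3), 0.44 ± 0.58, 0.76 ± 0.03 and 1.09 ± 0.12. The last is a 2.13-fold ratio over ES cells, rank 93 among the 9212 genes counted from the highest ratio (from the lowest if the sign is turned). At days 4, 8 and 15 the rank of Mt1 was 696, 282 and 163.

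Mt2 also stood near the ES level on some early arrays and above it on all late arrays. At day 4 its log2 ratio was 0.62, -0.27 and 0.83 on arrays 1 to 3, and at day 8 it was -0.17, 1.00 and 0.92. Again 1 array of each early day lay below 0. At day 15 Mt2 stood at 1.14, 1.20 and 0.64, and at day 21 at 1.29, 1.18 and 0.83. All 6 late values were positive, and array 3 was the lowest on both late days. The day means were 0.39 ± 0.59 (SD, n = 3), 0.58 ± 0.66, 0.99 ± 0.30 and 1.10 ± 0.24. The day 21 mean is a 2.14-fold ratio and rank 91 of the 9212 genes, counted in the same way. The rank of Mt2 was 115, 136 and 92 on days 4, 8 and 15, ahead of Mt1 on each of these days. At day 4 the difference Mt2 minus Mt1 was 0.19 ± 0.30 (SD, n = 3), smaller than its SD.

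**Figure D1:**
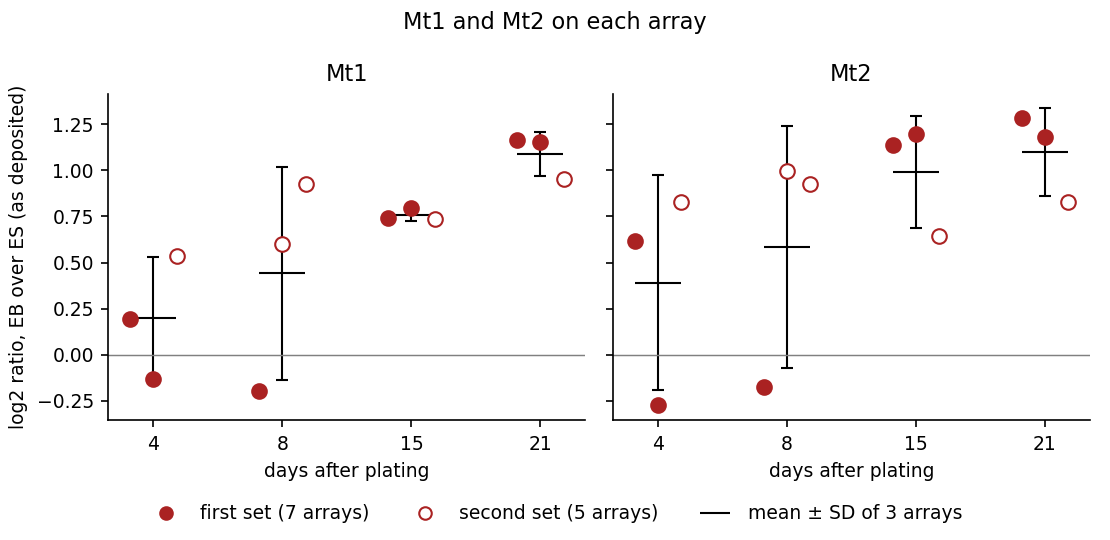
Log2 ratio of EB over ES cells for Mt1 (left) and Mt2 (right) on every array by day after plating; bars are the mean and SD of 3 arrays, and filled and open points are 2 sets of arrays told apart by unnamed features. The day means are ordered 4, 8, 15, 21 for both genes, and the day 8 arrays are the most spread, from -0.20 to 0.92 for Mt1.

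In both genes the day means were ordered from day 4 to day 21, but few neighbours in that order were separated. The arrays of days 4 and 8 overlapped for both genes, as did those of days 8 and 15. Between days 15 and 21 the Mt1 ranges did not overlap, with a gap of 0.16 and means that differed by 0.33. The Mt2 ranges of these days did overlap, with means 0.11 apart. Between days 4 and 21 neither gene overlapped, with means 0.89 apart for Mt1 and 0.71 apart for Mt2. The gap for Mt2 was only 0.0015. Day 4 arrays also had a narrower spread over all features (SD 0.23 to 0.31) than those of day 21 (0.35 to 0.42). Under quantile normalization, which gives all arrays the same spread, the day 4 means were 0.39 for Mt1 and 0.84 for Mt2, beside 0.87 and 0.88 at day 21. Without day 4 array 2 the Mt2 mean at day 4 was 0.72 in place of 0.39, and Mt1 was 0.36 in place of 0.20. Without day 8 array 1 the day 8 means were 0.76 for Mt1 and 0.96 for Mt2, against 0.20 for Mt1 without array 3 and 0.38 for Mt2 without array 2.

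The arrays fell into 2 sets by features that name no gene, and at the early times the metallothioneins differed between these sets. On the array 96 unnamed features recur at the same places in every block. Their median was between -0.31 and 0.06 on 7 arrays, called the first set, and between -1.54 and -1.04 on the other 5, the second set. The first set holds arrays 1 and 2 of days 4, 15 and 21 and array 1 of day 8; the second holds array 3 of each day and day 8 array 2. The split was made after seeing the data, and the labels say nothing of it. Within the first set Mt1 averaged 0.03 at day 4, -0.20 at day 8, 0.77 at day 15 and 1.16 at day 21. Within the second set it was 0.54, 0.76, 0.73 and 0.95. The first set therefore held no early array of Mt1 above 0.19 and the second set none below 0.54. Mt2 averaged 0.17, -0.17, 1.17 and 1.23 in the first set and 0.83, 0.96, 0.64 and 0.83 in the second. At day 21 the order of the sets was the opposite for both genes, and at day 15 Mt1 was about equal in both. In the second set, with 1 array each, the Mt2 value at day 21 thus nearly equalled that at day 4, so the difference between days 4 and 21 was not seen there. The part of the array set in these values was not tested.

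Mt1 and Mt2 went up and down together over the 12 arrays. Pearson's r between them was 0.90 and Spearman's rho 0.83, as a description, since this agreement was part of the choice. All points share the ES cells as the other channel, and the 3 arrays of a day share that day. With the day means removed r was 0.88, and within the 7 arrays of the first set it was 0.95. Without the arrays farthest from the Mt1 median (day 8 array 1 and day 4 array 2) r was 0.67 and rho 0.71 over the other 10 arrays. It was 0.92 over the 6 arrays of days 4 and 8 and 0.49 over the 6 of days 15 and 21, where rho was 0.71. Among all other genes Mt2 had rank 18 by its r with Mt1, and Mt1 had rank 7 by its r with Mt2.

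Mt2 lay above Mt1 on 8 of 12 arrays. The difference Mt2 minus Mt1 was 0.14 ± 0.22 (SD, n = 12) in log2 ratio and ran from -0.14 to 0.43. It exceeded 0.29 on 5 arrays: day 4 arrays 1 and 3, day 8 array 2, and day 15 arrays 1 and 2. At day 21 it was 0.01 ± 0.12 (n = 3). These are differences between ratios, not between transcript levels, which log ratios do not give. The 2 genes are close paralogs, and how far either probe also binds RNA of the other was not tested.

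**Figure D2:**
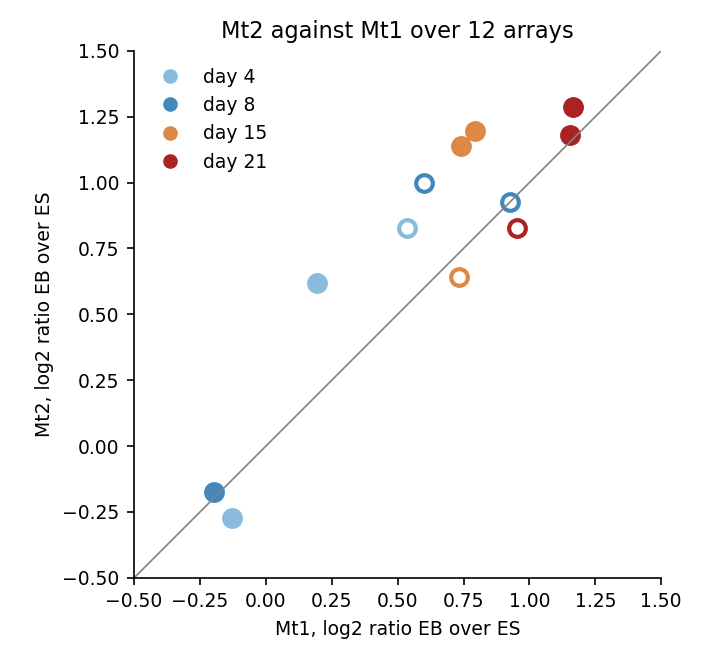
Log2 ratio (EB over ES) of Mt2 against Mt1 on the 12 arrays, coloured by day, filled for the first and open for the second array set; the line marks equal values. The points lie along the line with r of 0.90, and day 8 array 1 and day 4 array 2 stand alone at the lower left.

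The ratios of the other metallothionein genes did not share this course. Whether the probes of Mt3 and Mt4 gave signal over background in either channel is not known. Mt3 stood at 0.06 ± 0.20 (SD, n = 3) at day 4, -0.06 ± 0.18 at day 8, 0.04 ± 0.10 at day 15 and -0.03 ± 0.25 at day 21. With limma its adjusted p at day 21 was 0.860. Mt4 was at -0.20 ± 0.40, 0.04 ± 0.32, -0.09 ± 0.24 and -0.14 ± 0.18 on these days (day 21 adjusted p = 0.546). Across the 12 arrays r with the mean of Mt1 and Mt2 was -0.06 for Mt3 and -0.50 for Mt4. Of the 12 RefSeq entries nearest to the cluster, 6 on each side, 4 genes were measured. Nup93, a subunit of the nuclear pore, fell by 0.68 ± 0.13 at day 21 (adjusted p = 2.87e-04). Nudt21, an RNA processing factor, was called lower at -0.55 ± 0.18 (adjusted p = 0.0424), a call lost in 8 of the 12 fits that leave out 1 array. Bbs2, a gene of cilia, was called lower at day 8 only by a narrow margin (-0.34 ± 0.21, adjusted p = 0.0497) and stood at -0.05 ± 0.04 at day 21. Slc12a3, a salt transporter of kidney, was at -0.05 ± 0.05 (adjusted p = 0.690). None of these 4 neighbours was called higher on any day.

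Marker genes place these values among the cells that EB hold. In such bulk RNA a change in the number of cells of a type and a change of RNA per cell cannot be told apart. Of 13 measured genes of visceral endoderm and fetal liver, 0, 2, 9 and 11 were called higher by limma (adjusted p under 0.05) at days 4, 8, 15 and 21, and 0 lower, where 0%, 2.28%, 10.6% and 18.7% of all 10689 features were called in either direction. Of 8 ES cell genes, 0, 5, 8 and 8 were called lower. These lists include genes that decided the direction of the ratio and cannot count in its favour.

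The median of the 13 endoderm genes followed the metallothioneins array by array. At day 4 it was -0.01, -0.03 and 0.27 on arrays 1 to 3, beside a mean of Mt1 and Mt2 of 0.41, -0.20 and 0.68. At day 8 it was 0.01, 0.59 and 1.02, beside -0.19, 0.80 and 0.92. The early arrays with a low endoderm median were those with low metallothioneins, except day 4 array 1. At day 15 the median was 1.48, 1.54 and 0.57, beside 0.94, 0.99 and 0.69. At day 21 it was 1.84, 1.39 and 0.81, beside 1.23, 1.17 and 0.89. On both late days array 3 was lowest in both. Over the 12 arrays rho between this median and the mean of Mt1 and Mt2 was 0.97 and r was 0.86, and r was 0.72 with day means removed and 0.93 within the first set. For Ttr, the thyroid hormone carrier of visceral endoderm, r was 0.93 and rho 0.82. For Afp, the fetal serum protein, r was 0.91 and rho 0.78. Other genes of this list had lower r, at 0.83 for Trf and 0.43 for Fgb. Ttr is also among the genes of highest r given below. All of these are descriptions over arrays that share the ES channel. Arrays of the second set had the higher endoderm median at days 4 and 8 and the lower one at days 15 and 21, as for the metallothioneins. Over the 12 arrays endoderm and array set thus cannot be told apart, and the part of endoderm cells in the metallothionein values was not tested.

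Endoderm was not the only list to follow the metallothioneins. For the 8 ES cell genes r with the mean of Mt1 and Mt2 was -0.78 over the 12 arrays, and -0.57 with day means removed. For 5 genes of epithelium it was 0.84 and 0.80, and for 8 of mesenchyme 0.56 and -0.62. With day means removed the epithelium value was thus above that of endoderm. Within the first set r was -0.93 for ES cell, 0.93 for mesenchyme and 0.93 for epithelium genes, the same size as for endoderm, and 0.85 for both endothelium and red blood cell genes. The mesenchyme median on day 8 array 3, the early array with the highest metallothioneins, was -0.62. The median of the 96 unnamed features had r of -0.13 with the metallothioneins over all arrays, -0.32 with day means removed and 0.28 within the first set. The value over all arrays mixes opposite orders. On the early days the second set, where this median was lower, had the higher mean of Mt1 and Mt2. On the late days that set had the lower mean. The small r over all arrays thus does not describe the early or the late arrays by themselves, and the part of the array set was not tested.

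**Figure D3:**
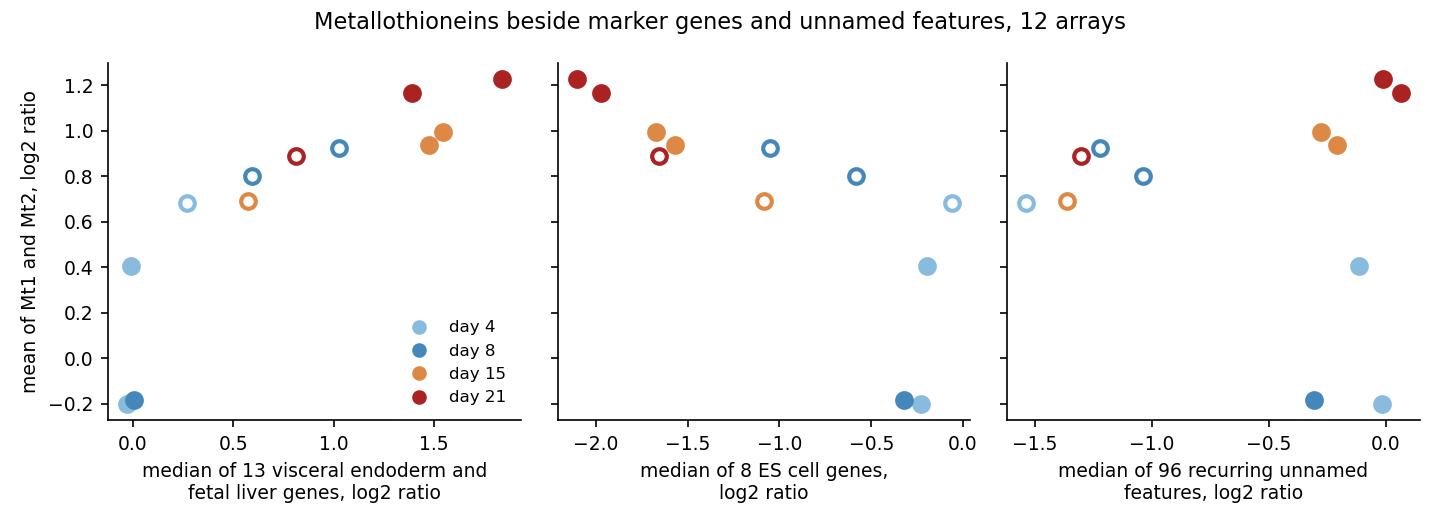
Mean log2 ratio of Mt1 and Mt2 on each of the 12 arrays (vertical) against the median log2 ratio of 13 visceral endoderm and fetal liver genes, 8 ES cell genes and 96 recurring unnamed features (horizontal), coloured by day, open for the second array set. The endoderm panel rises (rho of 0.97) and the ES cell panel runs the other way (rho of -0.89). In the endoderm panel, day 4 arrays 1 and 2 and day 8 array 1 share medians of -0.03 to 0.01. Their metallothionein means range from -0.20 to 0.41. The right panel shows the 2 sets side by side.

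Across 9210 other genes, those most like the metallothioneins were a mixed group. By Pearson's r with the mean of Mt1 and Mt2 over 12 arrays they were Scarb1, the receptor for high-density lipoprotein (r = 0.95), Clic1, an intracellular chloride channel protein (0.95), Gstm1, a glutathione transferase (0.93), and Ttr (0.93). Patj, a scaffold of tight junctions (0.92), Dync1i2, a dynein chain (0.91), Sdcbp, the adaptor syntenin (0.91), and Mta1, a subunit of a chromatin remodelling complex (0.91), came next. The likeness is one of order and not of size. Scarb1 ran from -0.31 to 0.19 and its day 21 mean was 0.14 ± 0.03 (n = 3). Gstm1 had a wider course, at -0.01, -0.43 and 0.34 on the day 4 arrays, -0.35, 0.64 and 1.05 on those of day 8, and between 0.94 and 1.55 on the 6 late arrays. It shared the low values of day 4 array 2 and day 8 array 1. With day means removed r of the 8 genes was between 0.84 and 0.94, and within the first set between 0.93 and 0.99. These values come from the arrays that picked the genes and are no separate check.

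Genes with the opposite order were Cox7a1, a subunit of cytochrome oxidase (r = -0.95), Nr5a2, a nuclear receptor of ES cells and endoderm (-0.94), Ripk3, a kinase of necroptosis (-0.91), and Chek2, a kinase of the DNA damage response (-0.91). Their day 21 means were -0.17 ± 0.11, -0.44 ± 0.06, -0.49 ± 0.27 and -0.38 ± 0.09. With so many genes compared over 12 arrays, high values of r arise in part from the search, and no test was made of them.

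**Figure D4:**
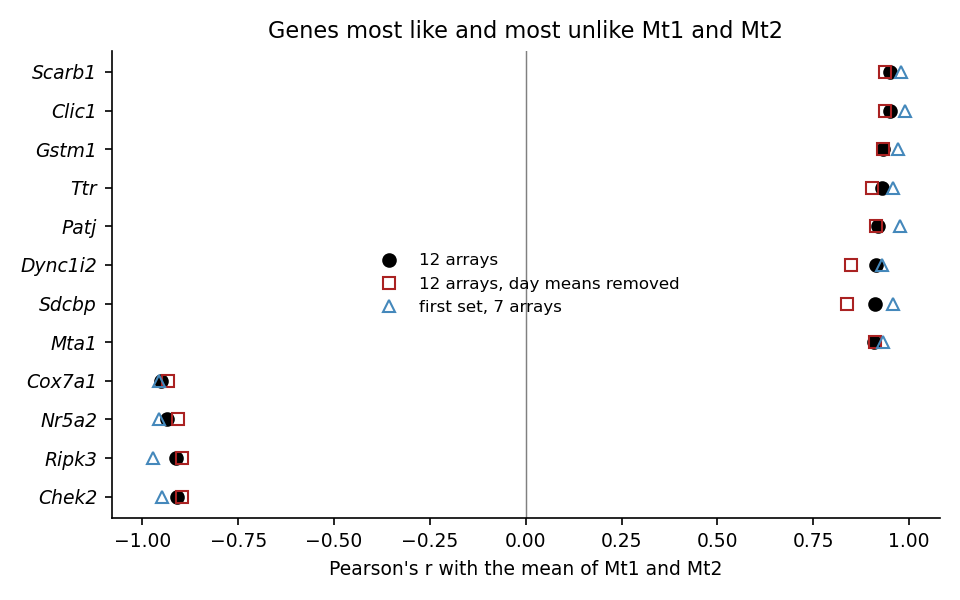
Pearson's r of 12 genes with the mean of Mt1 and Mt2: black for all 12 arrays, squares with day means removed, triangles for the 7 arrays of the first set. The 8 genes of highest r lie between 0.84 and 0.99 by every measure, and the 4 of lowest r between -0.97 and -0.90. All measures use the arrays that picked the genes.

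Genes of metal handling, stress response and signalling were examined in the same RNA. Their lists are broad and were chosen with earlier results of these data known. In the 7 lists 126 of 158 genes were measured. Each was tested against ES cells with limma over all 10689 features, at an adjusted p of 0.05. At day 4 limma called 0 of the 126, with 0% of all features called and 1081 of them at an unadjusted p under 0.05. At day 8 it called 6, 3 in each direction, which is 4.76% of the 126 (background 2.28% of features). At day 15 it called 10 higher and 17 lower, 21.4% of the 126 (background 10.6%). At day 21 it called 21 higher and 21 lower, 33.3% of the 126 (background 18.7%). Differences between days were called for 15, or 11.9% (background 2.9%). No set test was made of these shares. By list the medians at day 21 lay between -0.08 and 0.10, against 0.0031 for all features.

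These counts depended on single arrays. Without day 8 array 2 or array 3 the count at day 8 was 0. At day 15 it was 12 without array 1 and 8 without array 2, and at day 21 it was 22 without array 1 and 22 without array 2. The count between days was 7 without day 4 array 1, 8 without day 4 array 2, 7 without day 8 array 2, 8 without either of day 15 arrays 1 and 2, 6 without day 21 array 1 and 5 without day 21 array 2. Of the 33 calls named here at day 21, 16 held without each of the 12 arrays. Other normalizations lost some as well. Under both quantile normalization and scaling the day 21 calls of Slc30a1, Slc39a7, Heph, Cox17, Fth1, Tfrc, Sgk1, Hsd11b1, Socs2 and Nudt21 were lost. That of Jak2 was lost under scaling only.

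Among genes of zinc handling, Slc30a1, which exports zinc from the cell and is a known target of MTF1, stood at 0.29, -0.17 and 0.61 at day 4 and 0.53, 0.51 and 1.22 at day 8. It was at 1.02, 1.17 and 0.02 at day 15 and 0.46, 2.01 and 0.58 at day 21. Its day 21 mean of 1.02 ± 0.86 (n = 3) was called higher (adjusted p = 0.0277), but without array 2 it was 0.52 (adjusted p = 0.252), and the call was also lost under quantile normalization (adjusted p = 0.0567) and scaling (0.0604). Its r with the mean of Mt1 and Mt2 was 0.60. Mtf1 itself was not called, at -0.00 ± 0.07, -0.32 ± 0.32, -0.30 ± 0.25 and -0.27 ± 0.02 on the 4 days (day 21 adjusted p = 0.115).

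Of 13 measured zinc genes 2 were called higher and 1 lower at day 21, a share close to the 18.7% of all features. The importer Slc39a7, which releases zinc from the endoplasmic reticulum, was at 0.33 ± 0.12 (adjusted p = 0.0451), a call lost in 7 of the 12 fits without 1 array. Slc30a9, of the zinc transporter family, was at -0.41 ± 0.14 at day 21 (adjusted p = 0.00563), a call lost without array 1 of that day (-0.34, adjusted p = 0.0680). At day 15 it was at -0.53 ± 0.15 (adjusted p = 0.00249), a call that held without each array. Slc30a7, which loads zinc into the secretory pathway, was called only at day 8 (0.55 ± 0.13, adjusted p = 0.0235), and Slc30a4, an exporter into vesicles, only at day 15 (-0.38 ± 0.27, adjusted p = 0.0459). The first call was lost without any 1 of the day 8 arrays, and the other was kept in 4 of the 12 fits without 1 array.

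Of 13 measured copper genes 1 was called higher and 2 lower at day 21, again close to that background. Heph, a copper oxidase that loads iron for export, was at 0.76 ± 0.36 (adjusted p = 0.0319), lost without array 1 or 2 of that day. Commd1, a regulator of copper export, was at -0.46 ± 0.17 (adjusted p = 0.00730), lost without array 1. Cox17, the copper chaperone of cytochrome oxidase, was at -0.35 ± 0.06 (adjusted p = 0.0444), lost in 5 of 12 such fits. Of 18 iron genes 3 were higher and 3 lower (background 18.7% of all features). Trf, the iron carrier of serum and also one of the endoderm markers, rose by 2.52 ± 0.87 (adjusted p = 0.00119) and held without each array. The ferritin chain Fth1, which stores iron, was at 0.76 ± 0.24 (adjusted p = 0.00766), and the transferrin receptor Tfrc at -0.39 ± 0.13 (adjusted p = 0.0216). Ireb2, a sensor of iron, was at -0.36 ± 0.21 (adjusted p = 0.0126). The calls of Fth1, Tfrc and Ireb2 were lost without 1 or more of the day 21 arrays.

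Of 30 measured genes of defence against oxidants, the longest list, 7 were higher and 5 lower at day 21 (background 18.7% of all features). Gpx3, the secreted glutathione peroxidase, rose by 2.06 ± 0.19 (adjusted p = 1.31e-04), and Gstm1 by 1.52 ± 0.03 (adjusted p = 4.89e-04). Mgst1, a membrane-bound glutathione transferase, rose by 0.54 ± 0.19 (adjusted p = 0.00133). Gsta4, a transferase for lipid peroxidation products, fell by 0.96 ± 0.08 (adjusted p = 1.57e-05). These calls of 4 genes held without each array. Catalase, Cat, was at 0.83 ± 0.43 (adjusted p = 0.00460) and heme oxygenase, Hmox1, at 0.35 ± 0.07 (adjusted p = 0.00614), both lost without day 21 array 2. On the arrays Gpx3 had 0.16, 1.40 and 1.93 at day 8, the order seen in Mt1.

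Of 20 measured genes of the glucocorticoid response 2 were higher and 3 lower at day 21 (background 18.7% of all features). Hsd11b2, which inactivates glucocorticoids, rose by 1.03 ± 0.21 (adjusted p = 3.66e-04). Klf9, a transcription factor induced by glucocorticoids, fell by 0.87 ± 0.10 (adjusted p = 5.06e-05), and Fkbp4, a cochaperone of the receptor, by 0.63 ± 0.12 (adjusted p = 4.66e-04). Those 3 calls held without each array. The kinase Sgk1 was at -0.70 ± 0.43 (adjusted p = 0.0182) and Hsd11b1, which activates glucocorticoids, at 0.34 ± 0.07 (adjusted p = 0.0253). The call of Sgk1 was lost without array 1 or array 2 of day 21, and that of Hsd11b1 without any 1 of the 3 arrays.

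Of 22 measured genes of IL-6 and LIF signalling and the acute phase 5 were higher and 2 lower at day 21 (background 18.7%). The fibrinogen chains Fga and Fgb, acute phase proteins made by liver, rose by 2.03 ± 0.68 (adjusted p = 8.09e-04) and 1.10 ± 0.27 (adjusted p = 1.16e-04), and both calls held without each array. Fgb is also one of the endoderm markers. The kinase Jak2 was at 0.41 ± 0.12 (adjusted p = 0.0174), the signalling inhibitor Socs2 at -0.39 ± 0.31 (adjusted p = 0.0488) and Timp1, an inhibitor of matrix proteases, at -0.73 ± 0.18 (adjusted p = 0.00645). The call of Jak2 was lost without day 21 array 1 or 2 and that of Timp1 without array 1, while that of Socs2 was kept in only 3 of the 12 fits without 1 array. LIF was present for the ES cells and is not named for the EB.

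Of 17 measured genes of heat shock and protein stress 2 were higher and 5 lower at day 21 (background 18.7% of all features). The chaperones Hsp90aa1 and Hspa4 fell by 1.19 ± 0.17 (adjusted p = 2.01e-04) and 0.91 ± 0.05 (adjusted p = 6.09e-05). The cochaperone Stip1 fell by 0.72 ± 0.11 (adjusted p = 0.00336) and the small heat shock protein Hspb1 by 0.71 ± 0.11 (adjusted p = 0.00110). Herpud1, a gene of the endoplasmic reticulum stress response, rose by 0.77 ± 0.47 (adjusted p = 0.00318). All 5 calls held without each array. Means of genes with several probes average values that differed at day 21 for Hsp90aa1 (-1.65 and -0.73), Fga (2.56 and 1.51), Timp1 (-0.26 and -1.20) and Gpx3 (2.36 and 1.76).

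**Figure D5:**
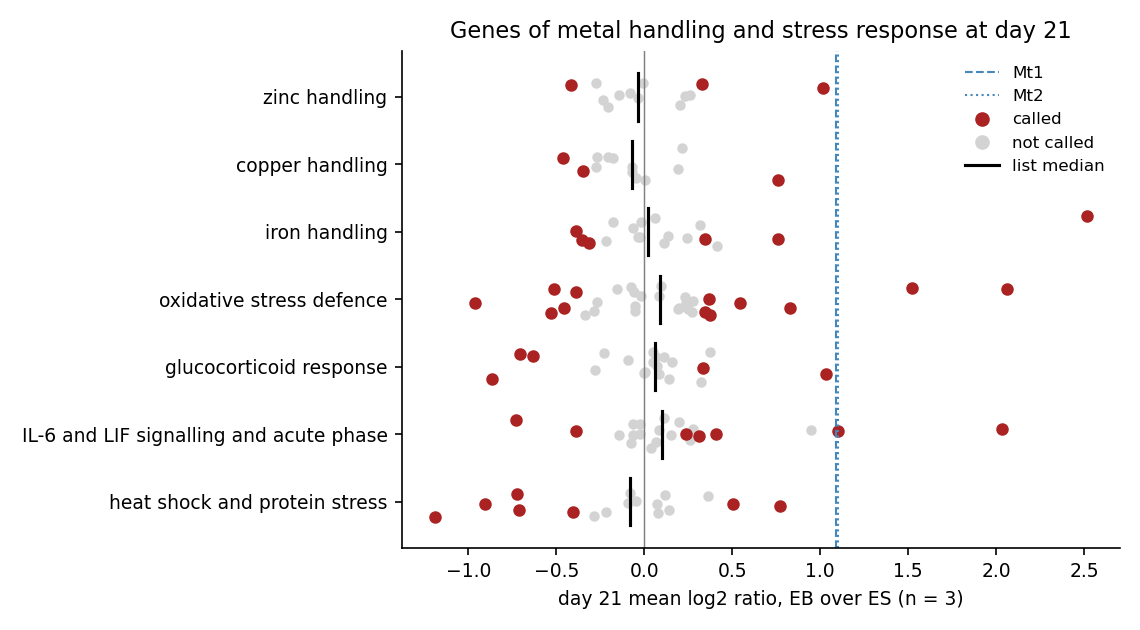
Day 21 mean log2 ratio (EB over ES, n = 3) of the measured genes of 7 lists; red points were called by limma, grey points were not, black bars are list medians and the blue lines mark Mt1 and Mt2. Each list holds called genes on both sides of 0, and the list medians lie between -0.08 and 0.10.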

How the data were processed

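The deposited values are normalized log ratios of the 2 channels per the labels, read as log2; the authors' scanner, background correction and normalization are not given in the sources used here. For 11520 features on 12 arrays 0 values were missing, and array medians were near 0. No intensities were used, so dim spots could not be filtered. Array number limits the precision. GEO's platform annotation gave the gene names: 10043 features had 1 symbol, 29 several and 1448 none. By Entrez ID 10025 matched RefSeq's GRCm38.p6 table and 0 changed. Probes of a gene were averaged. Using limma 3.58.1 under R 4.3.3, lmFit and eBayes fitted 1 model of 4 day means over all arrays to 10689 features. Each mean was tested against 0, which leaves out the spread of the ES control, and the days against each other by a moderated F-test. P-values (two-sided against 0) are adjusted by Benjamini-Hochberg over all features, and calls are at 0.05. The fit was tested on simulated data. No test is given for Mt1 and Mt2. The genes and lists were chosen with earlier results of these data known. Named were Mt1 and Mt2, up to 5 genes of each list called on any day, by the size of their day 21 mean, Mtf1, Slc30a1, Mt3 and Mt4, 8 genes of highest and 4 of lowest r, and the measured neighbours. Promoter windows are RefSeq's on GRCm38.p6. Alternatives were other normalizations, array weights, the array number as a block, single days, single probes, each array left out and, added after seeing the data, the array set. Plots were drawn with matplotlib 3.10.9.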

Additional observations from a re-analysis of the deposited data

Results flagged for a closer look

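The moderated F-test of limma found different day means for 12 of the genes named above, where it called 2.9% of all features. No such test is given for Mt1 and Mt2. In defence against oxidants these were Gsta4 (adjusted p = 3.23e-04), with day means from 0.42 at day 4 to -0.96 at day 21, Gpx3 (adjusted p = 0.00910), from -0.08 to 2.06, Mgst1 (adjusted p = 0.0276), from -0.04 to 0.54, and Gstm1 (adjusted p = 0.0348), from -0.03 to 1.52. Of glucocorticoid genes they were Hsd11b2 (adjusted p = 0.00779), from -0.15 to 1.03, and Klf9 (adjusted p = 0.0126), from -0.13 to -0.87. Of chaperones they were Hspa4 (adjusted p = 0.00908), from 0.00 to -0.91, and Hsp90aa1 (adjusted p = 0.0355), from -0.04 to -1.19. Socs2 (adjusted p = 0.0348) went from 0.63 at day 4 to -0.39 at day 21, and Fgb (adjusted p = 0.0413) from 0.23 to 1.10. Trf (adjusted p = 0.0186) went from -0.34 to 2.52, and the neighbour Nup93 (adjusted p = 0.0367) from 0.01 to -0.68. Each mean is over 3 arrays. All of these genes but Nup93 were named because limma called them against ES cells on some day. Their number is therefore not independent of those calls. Of all 126 measured list genes the F-test called 15, and from 5 to 18 with single arrays left out.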

How the results depend on the processing

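The values of Mt1 and Mt2 kept their sign under quantile normalization, scaling, the median of 3 arrays and each array left out, and changed it only within the first array set at day 8, where the single array gave -0.20 for Mt1 and -0.17 for Mt2. Mt1 moved by more than its SD under quantile normalization (0.68 at day 15 and 0.87 at day 21), under scaling (0.72 and 0.88) and within the second set (0.54 at day 4 and 0.95 at day 21). Mt2 did so within the second set (0.64 at day 15 and 0.83 at day 21). With single arrays left out Mt1 ran from 0.03 to 0.36, 0.20 to 0.76, 0.74 to 0.77 and 1.05 to 1.16 on the 4 days, and Mt2 from 0.17 to 0.72, 0.38 to 0.96, 0.89 to 1.17 and 1.00 to 1.23. Their r ran from 0.85 to 0.92. Each gene had 1 probe, so single probes gave no other value.

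The counts of called list genes (0, 6, 27 and 42 on the 4 days, 15 between days) were 8, 12, 20 and 24, and 9 between days, under quantile normalization. They were 4, 13, 25 and 24, and 9, under scaling and 6, 23, 55 and 53, and 25, with array weights. With the array set as a term they were 3 at day 4 and 10 at day 8, and in fits of single days 0 at day 8 and 8 at day 15. With single arrays left out they ran from 0 to 0, 0 to 9, 8 to 34 and 22 to 43, and from 5 to 18 between days. The cause was not tested. Over all features the counts ran from 0 to 137, 1 to 999, 235 to 3251 and 753 to 2622, and from 101 to 1416 between days, over all alternatives, against 0, 244, 1129, 1999 and 310. Leaving out features of low spread or testing single probes moved no list count by over 1.5 times. With the replicate number as a block the counts were 0, 6, 28 and 38, and 13 between days, and r between Mt1 and Mt2 with day and number means removed was 0.95. The numbers were not taken to pair the arrays, since only 8 of 18 pairs of one number had residual correlations over 0.1 (median 0.08). Among pairs of other numbers 5 of 36 did (median -0.03), and 8 of 12 arrays correlated best with their own number, a hint from the data and not the design. Signal over background is not known here.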

Other observations

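Marker lists of other cell types also stood apart by array. Of 4 measured red blood cell genes, the embryonic globins among them, the median was 1.17, 1.14 and 0.08 on day 15 arrays 1 to 3 and 0.85, 0.66 and -0.10 at day 21, low on the array of the second set on both days. On these arrays the mean of Mt1 and Mt2 was low as well, at 0.69 and 0.89, while the mesenchyme median at day 21 was 1.60, 1.42 and 1.64, with array 3 the highest. Macrophage genes, of which 3 were measured, had r of -0.38 with the metallothioneins over the 12 arrays. Heart muscle (r = 0.57), endothelium (0.65) and neuron genes (0.65) lay between the lists of mesenchyme and epithelium. These are descriptions over 12 arrays, with no test.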
